A study of Mus musculus with 6 samples.

Results

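This account covers the 55 genes for collagen and laminin chains, out of 19659 gene rows with expression values, measured by RNA sequencing of whole mouse kidneys collected on postnatal day 3. Members were taken by symbol alone, as every gene named Col or Lam followed by a chain number and with a numeric value. They comprise 17 basement membrane chains (6 of collagen IV and 11 of laminin), 11 fibrillar collagen chains and 27 other collagen chains. Results are given for 54 of them. The study compared R26NICD2/+Kspcre kidneys (NICD2 for short) with wild type kidneys (WT), with 3 libraries in each group. In NICD2 mice the Rosa26 locus carries the intracellular domain of Notch2, the part of the receptor that enters the nucleus and switches on target genes. Kspcre drives Cre recombinase from the Cdh16 (Ksp-cadherin) promoter, a promoter of kidney tubule epithelium. The controls are labelled wild type and a group with Cre alone is not analysed here, so effects of the Cre cannot be told apart from those of the Notch2 domain. The title of the series puts the question as the part of Notch2 activation in the growth of kidney cysts.

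Basement membranes are sheets of collagen IV and laminin on which every epithelial tubule, glomerulus and vessel of the kidney rests. Laminin assembles from an alpha, a beta and a gamma chain and collagen IV from alpha chains wound into a triple helix, and the composition of both changes as glomeruli mature: Lama1, Lamb1, Col4a1 and Col4a2 come early, and Lama5, Lamb2, Col4a3, Col4a4 and Col4a5 become the chains of the mature glomerular membrane. Fibrillar collagens, foremost types I and III, form the fibres of the interstitium, while the remaining types coat fibrils (the FACIT group), build beaded filaments or hexagonal networks, or span the cell membrane.

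All 6 libraries held kidney RNA, with Cdh16 at 236 ± 19.6 FPKM in NICD2 and 274 ± 20.1 FPKM in WT kidneys (SD, n = 3 each; FPKM are fragments scaled to transcript length and library size). A row that the table names as human Notch2 stood at 75.44, 79.59 and 60.17 FPKM in the NICD2 libraries and at 0, 0.03 and 0.03 FPKM in the WT libraries. The libraries came to an estimated 16550000 to 17350000 fragments, and 13568 to 13784 genes reached 1 FPKM in each. Markers of the adrenal gland, 10 genes in all, summed to 2.58, 194 and 195 FPKM in NICD2 replicates 1 to 3 and to 200, 205 and 6.39 FPKM in WT replicates 1 to 3, so 4 libraries carried adrenal RNA that NICD2 replicate 1 and WT replicate 3 nearly lacked. NICD2 replicate 3 was at 0 FPKM for Ddx3y, Uty, Eif2s3y and Kdm5d on the Y chromosome, and the other libraries were not. In whole organs, fewer cells of a type and less RNA per cell cannot be told apart.

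The genes Col4a3 and Col4a4 lie head to head on chromosome 1 and moved together, so the stretch between their outermost starts in GENCODE vM21 is shown, on the Col4a4 strand of GRCm38.p6. The deposited Col4a4 model runs 219 bases past that start and into Col4a3, so by that model the stretch lies inside Col4a4. Beside it stand 250 bases each for Col27a1 and Col8a1, called higher in NICD2 kidneys, taken before the transcript start that the RefSeq table gives. For Col8a1 this is the start of the deposited gene, while for Col27a1 it lies 1403 bases inside the deposited gene, whose first transcript starts further upstream. Capitals mark the letters GGGCGG on either strand (CCGCCC), the binding sequence of Sp1-type factors.
Col4a4 to Col4a3, chr1:82586850-82586920, minus strand: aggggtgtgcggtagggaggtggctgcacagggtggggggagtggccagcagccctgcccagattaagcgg
Col27a1, chr4:63215162-63215411, plus strand: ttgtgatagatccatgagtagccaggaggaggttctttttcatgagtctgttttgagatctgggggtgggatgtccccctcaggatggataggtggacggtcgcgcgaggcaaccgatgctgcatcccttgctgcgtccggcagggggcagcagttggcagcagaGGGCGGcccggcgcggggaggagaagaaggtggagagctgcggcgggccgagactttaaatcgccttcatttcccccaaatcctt
Col8a1, chr16:57754738-57754987, minus strand: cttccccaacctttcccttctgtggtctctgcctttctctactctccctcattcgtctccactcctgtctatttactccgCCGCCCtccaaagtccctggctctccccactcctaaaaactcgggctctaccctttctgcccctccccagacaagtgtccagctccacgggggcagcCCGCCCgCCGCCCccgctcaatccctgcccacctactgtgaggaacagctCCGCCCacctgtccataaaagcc
In GENCODE 71 bases separate both starts of the collagen IV pair, of which 69.0% are G or C. The 250 bases before that Col4a4 start held none of the motifs searched, Col27a1 held GGGCGG once and Col8a1 held it 4 times. Over the 40 members with a window in the RefSeq table (44 windows), 57.5% had GGGCGG in at least 1 of their windows. Of all 32851 windows of the same length, counted singly, 32.7% had it. The letters TGGGAA (or TTCCCA), the core bound by the Notch partner Rbpj, stood in 37.5% of members and in 21.6% of all windows, and in 0 of the 5 called members with a window (Col11a1, Col27a1, Col4a4, Col6a2 and Col8a1). The letters CCAAT (or ATTGG) stood in 35.0% of members and 33.8% of all windows. Of 39 members with a window on their own chromosome, 16 had none that starts within 100 bases of the deposited gene's start or outside it. These are counts of letters on both strands and say nothing of binding.

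Of these 54 chains, 42 reached 1 FPKM in at least 3 libraries and were tested. In limma on log2(FPKM + 1) with Benjamini-Hochberg adjustment over all 13765 genes tested, 6 chains were higher in NICD2 kidneys, 3 were lower and 33 did not pass an adjusted p of 0.05. Over all genes tested, 8.79% were called, 4.93% higher and 3.86% lower. Col8a1, 1 of the higher chains, reached 1 FPKM only in NICD2 libraries. Of the 41 tested chains that reached it in both groups, 5 were higher and 3 lower. Of all genes tested that reached it in both groups, 8.18% were called. The median log2 fold change, NICD2 minus WT, was -0.09 over the tested chains and -0.01 over all genes tested. The chains called higher were Col26a1, Col12a1, Col27a1, Col8a1, Col11a1 and Lama1, and those called lower were Col4a3, Col4a4 and Col6a2. The 3 NICD2 libraries lay above the 3 WT libraries for 10 tested chains, Col8a1 among them, and below them for 9. Over all genes tested the groups were apart for 30.5% in either direction, 15.0% above and 15.5% below. The groups overlapped for 23 chains.

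**Figure D1:**
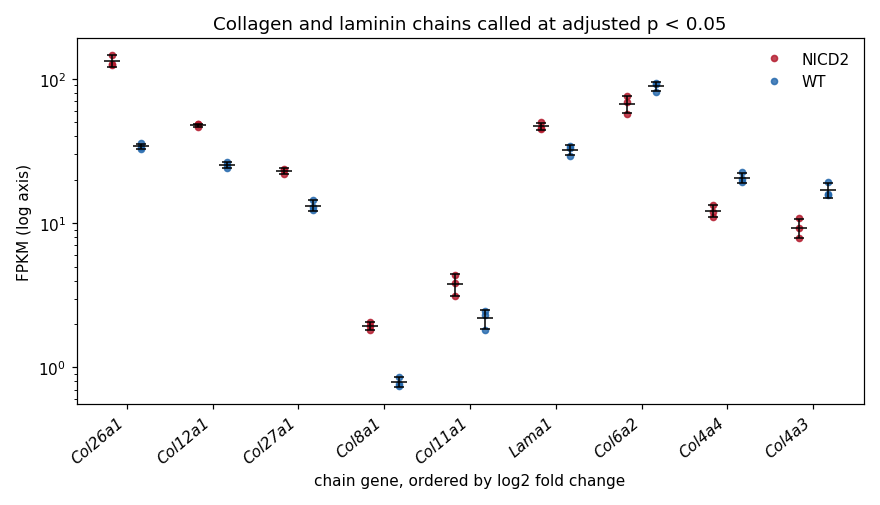
Level in FPKM (log axis) of the 9 chains called at an adjusted p under 0.05, ordered by the log2 fold change of FPKM + 1. Each library is 1 point, red for NICD2 and blue for WT, with black bars for the mean and SD of 3 libraries. The red points lie above the blue ones for the 6 chains from Col26a1 to Lama1 and below them for Col6a2, Col4a4 and Col4a3. Col26a1 stood at 125 to 147 FPKM in NICD2 and 32.8 to 35.7 FPKM in WT kidneys. Col8a1 was tested only through its NICD2 libraries.

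Among collagen IV chains, the pair of the mature glomerular membrane fell and the other 4 did not pass the test. Col4a3 had 9.22, 7.92 and 10.78 FPKM in NICD2 kidneys, against 15.83, 19.14 and 15.69 FPKM in WT kidneys. Col4a4 had 11.04, 11.99 and 13.42 FPKM in NICD2 kidneys, against 19.14, 22.61 and 20.08 FPKM in WT kidneys. All NICD2 libraries lay below all WT libraries for both chains, which the podocyte makes and which are the genes of autosomal Alport syndrome in humans. Which cells of the whole kidney these values come from was not measured. The log2 fold change was -0.80 ± 0.12 for Col4a3 (SE, limma adjusted p = 0.00415) and -0.72 ± 0.09 for Col4a4 (adjusted p = 0.00193). Col4a3 spans chr1:82586921-82722059 on the plus strand and Col4a4 chr1:82448419-82587068 on the minus strand, and the spans share 148 bases. Since the sources used here do not say whether the authors counted by strand, fragments from these shared bases cannot be assigned to either gene.

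Their partner in the trimer, Col4a5, had 30.10, 27.21 and 33.37 FPKM in NICD2 kidneys and 25.90, 33.01 and 29.53 FPKM in WT kidneys. The groups overlapped, with a log2 fold change of 0.04 and a 95% interval of -0.20 to 0.27 (adjusted p = 0.868). The neighbouring chain Col4a6, found in the membranes of tubules and Bowman's capsule, had 1.72, 2.60 and 2.99 FPKM in NICD2 kidneys and 1.10, 2.96 and 1.98 FPKM in WT kidneys. The spread within each group exceeded the difference between the group means, and the 95% interval of the log2 fold change ran from -0.31 to 0.75. Both genes lie on the X chromosome, 1293 bases apart, and NICD2 replicate 3, the library with no Y-linked transcripts, was the highest NICD2 library for both. The part of this in either value was not tested.

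The broad chains Col4a1 and Col4a2, present in every basement membrane of the kidney, were the most abundant collagen IV chains. Col4a1 had 457.86, 538.79 and 501.78 FPKM in NICD2 kidneys and 400.31, 449.21 and 412.20 FPKM in WT kidneys. Every NICD2 library was above every WT library, but the difference did not pass the adjusted threshold (log2 fold change 0.25, 95% interval 0.06 to 0.44, adjusted p = 0.109). Col4a2 had 254.96, 323.03 and 286.74 FPKM in NICD2 kidneys and 243.81, 266.32 and 244.01 FPKM in WT kidneys, with groups that overlapped (adjusted p = 0.243). Together these chains made up 93.5% ± 0.89 of summed collagen IV FPKM in NICD2 kidneys and 90.7% ± 0.51 in WT kidneys (SD, n = 3 each). Col4a3, Col4a4 and Col4a5 made up 6.18% ± 0.88 in NICD2 and 9.02% ± 0.40 in WT kidneys.

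Ratios within a library compare the chains that replace each other. Col4a3 over Col4a1 was 0.0201, 0.0147 and 0.0215 in NICD2 libraries, against 0.0395, 0.0426 and 0.0381 in WT libraries. The groups did not overlap, and the log2 ratio, taken on FPKM + 1 here and below, differed by -1.05. A two-sided exact permutation test gave p = 0.1, the smallest that 3 against 3 libraries allow (adjusted p = 0.2 over 8 ratios). Within the head-to-head pairs the ratios overlapped between groups. Col4a4 over Col4a3 was 1.32 ± 0.17 in NICD2 and 1.22 ± 0.05 in WT kidneys, and Col4a2 over Col4a1 was 0.576 ± 0.022 in NICD2 and 0.598 ± 0.010 in WT kidneys (SD, n = 3 each; exact permutation p = 0.6 and 0.3). Col4a6 over Col4a5 was 0.0808 ± 0.0207 in NICD2 and 0.0664 ± 0.0236 in WT kidneys (exact permutation p = 0.6). Taken on FPKM + 1, the log2 ratio of Col4a6 to Col4a5 differed by 0.18 with all libraries and by 0.03 without WT replicate 1. With a pseudocount of 0.1 it differed by 0.29 with all libraries.

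Part of the podocyte markers moved with Col4a3 and Col4a4. Of 15 podocyte markers, 8 were called lower (among them Wt1, Nphs1 and Ptpro) and 0 higher, with a median log2 fold change of -0.45, and their summed level was 512 to 527 FPKM in NICD2 and 624 to 656 FPKM in WT kidneys. The 8 called markers stood at 67.2% to 71.9% of their WT means, and the 7 not called at 76.4% to 105%. Wt1, Nphs1 and Ptpro kept their call in all 6 fits that leave out a library. Not all of the 8 did, and the least stable kept it in 1. Col4a3 stood at 55.1% ± 8.5 and Col4a4 at 59.0% ± 5.8 of the WT mean in the NICD2 libraries (SD, n = 3). Nphs1, which encodes nephrin of the slit diaphragm, had 9.28, 10.29 and 11.26 FPKM in NICD2 kidneys, against 14.04, 16.58 and 15.29 FPKM in WT kidneys (adjusted p = 0.00826). None of the 15 markers was at 0 in any library. The part of podocyte number in the collagen values was not tested.

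**Figure D2:**
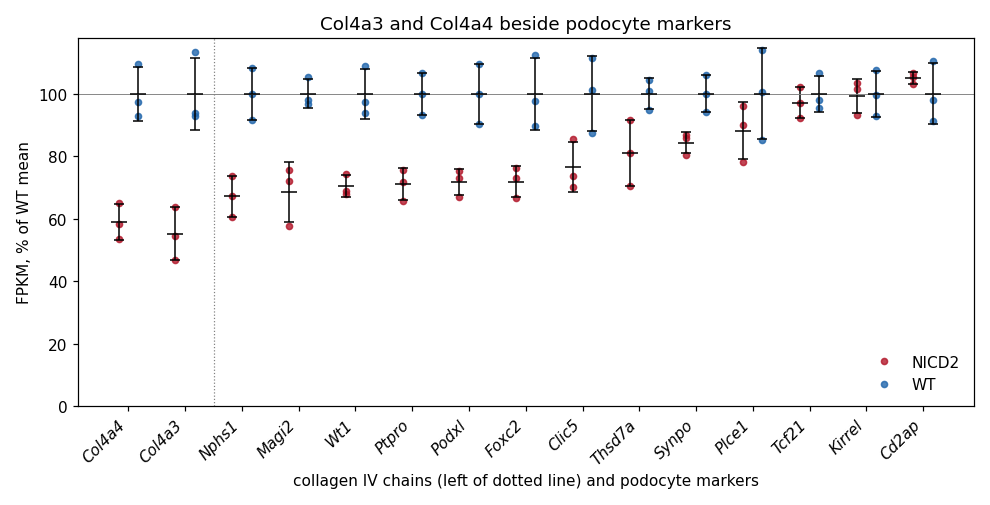
FPKM as a percentage of the WT mean for Col4a4 and Col4a3 (left of the dotted line) and podocyte markers, with 1 point per library, red for NICD2 and blue for WT, and bars for mean and SD of 3 libraries. The NICD2 means of both collagens, 59.0% and 55.1%, lie below those of the markers called lower, 67.2% to 71.9%.

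Among laminin alpha chains, Lama1 rose and the other 4 did not pass the test. Lama1, the alpha chain of early epithelial basement membranes (chr17:67697127-67822645, plus strand), had 44.65, 49.86 and 45.88 FPKM in NICD2 kidneys, against 29.09, 32.88 and 34.26 FPKM in WT kidneys. The groups did not overlap, and the log2 fold change was 0.53 ± 0.08 (SE, limma adjusted p = 0.00430). Lama5, the alpha chain of mature glomerular and collecting duct membranes, had 33.92, 37.12 and 35.27 FPKM in NICD2 kidneys and 36.15, 39.13 and 32.85 FPKM in WT kidneys. Its groups overlapped (log2 fold change -0.02, 95% interval -0.20 to 0.15, adjusted p = 0.900). Lama5 over Lama1 was 0.760, 0.744 and 0.769 in NICD2 libraries, against 1.24, 1.19 and 0.959 in WT libraries. Lama1 was thus the more abundant of both per length in every NICD2 library and in 1 WT library (exact permutation p = 0.1, adjusted p = 0.2).

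The remaining alpha chains are minor in tubules. Lama4, a chain of vessel walls, had 19.50, 19.65 and 20.83 FPKM in NICD2 kidneys and 20.90, 22.67 and 24.03 FPKM in WT kidneys. Each NICD2 library was lower than each WT library without passing the threshold (log2 fold change -0.16, adjusted p = 0.191). Lama2, best known from muscle, averaged 10.2 ± 1.39 FPKM in NICD2 and 9.81 ± 1.19 FPKM in WT kidneys, and Lama3, an epithelial alpha chain, averaged 1.62 ± 0.27 FPKM in NICD2 and 1.99 ± 0.18 FPKM in WT kidneys (SD, n = 3 each). The epithelial beta chain Lamb3 had 1.06, 0.94 and 0.96 FPKM in NICD2 kidneys and 1.28, 0.99 and 0.81 FPKM in WT kidneys, reached 1 FPKM in too few libraries and was not tested.

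Lamb1 and Lamc1, the common beta and gamma chains, were the most abundant laminin chains reported. Lamb1 had 156.81, 165.52 and 171.12 FPKM in NICD2 kidneys and 140.71, 163.37 and 161.16 FPKM in WT kidneys (adjusted p = 0.529). Lamc1 had 127.42, 130.61 and 134.74 FPKM in NICD2 kidneys and 110.45, 127.00 and 123.43 FPKM in WT kidneys (adjusted p = 0.315). The Lamb1 groups overlapped, and those of Lamc1 just did not. Lamb2, the beta chain of the mature glomerular membrane, had 25.55, 26.61 and 26.90 FPKM in NICD2 kidneys and 32.03, 32.48 and 26.90 FPKM in WT kidneys, with a log2 fold change of -0.20 (adjusted p = 0.170). WT replicate 3 was as low as the highest NICD2 library. Lamb2 over Lamb1 was 0.160 ± 0.003 in NICD2 and 0.198 ± 0.030 in WT kidneys, with groups that did not overlap (SD, n = 3 each; exact permutation p = 0.1, adjusted p = 0.2). The difference of the log2 ratio was -0.28, and -0.18 without WT replicate 1. Lamc3 averaged 2.98 ± 0.28 FPKM in NICD2 and 3.71 ± 0.57 FPKM in WT kidneys.

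**Figure D3:**
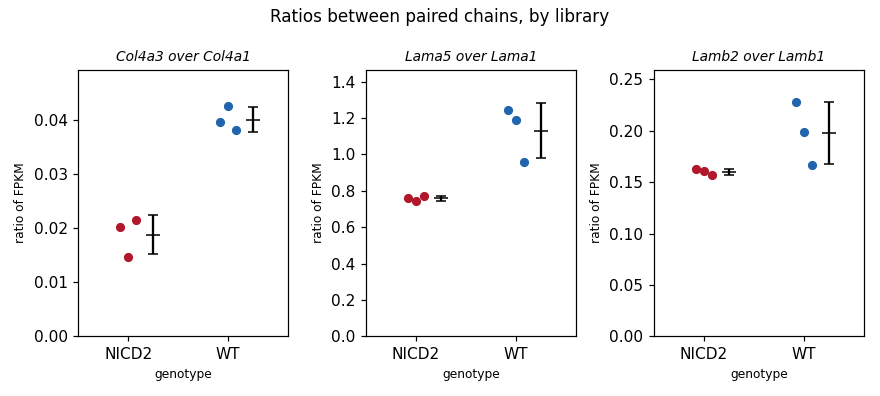
Ratio of FPKM between chains that replace each other, for each library of NICD2 (red) and WT (blue), with the mean and SD of 3 libraries to the right of the points and all axes starting at 0. In each of the 3 panels the groups do not overlap, with Col4a3 over Col4a1 at 0.0147 to 0.0215 in NICD2 and 0.0381 to 0.0426 in WT kidneys.

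Among the basement membrane chains reported, 1 was called higher and 2 lower of 15 tested, with a median log2 fold change of 0.04. Summed collagen IV FPKM was 842 ± 73.6 in NICD2 and 741 ± 46.1 in WT kidneys, and the summed FPKM of 10 laminin chains was 440 ± 15.9 in NICD2 and 413 ± 26.1 in WT kidneys (SD, n = 3 each). The other genes of the basement membrane changed in both directions: of 20 tested, 3 were called higher (Ntn4, Tinagl1 and Hmcn1) and 2 lower (Egfl6 and Papln), with a median of -0.02. Ntn4, a netrin that binds laminin gamma chains, had 27.04, 23.72 and 27.24 FPKM in NICD2 kidneys, against 6.73, 10.20 and 7.50 FPKM in WT kidneys. Its groups did not overlap (log2 fold change 1.58 ± 0.13, limma adjusted p = 2.15e-04). Of the 13 tested receptors for collagen and laminin, only the laminin-binding integrin Itga3, a podocyte and tubule gene, was called, with 23.39, 23.88 and 22.55 FPKM in NICD2 kidneys and 28.68, 29.86 and 26.61 FPKM in WT kidneys (adjusted p = 0.0359). The calls of Hmcn1, Papln and Itga3 were each lost in at least 5 of the 6 fits that leave out a library.

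Among fibrillar chains, 2 minor ones rose and the bulk collagens did not pass the test. Of 9 tested, 2 were higher and 0 lower, with a median log2 fold change of -0.11. An unadjusted limma p under 0.05 was reached by 4 of them, beside 3450 of all 13765 genes tested. Col27a1, a fibrillar collagen best known from cartilage (chr4:63214009-63334991, plus strand), had 23.77, 21.91 and 23.23 FPKM in NICD2 kidneys, against 14.49, 12.87 and 12.32 FPKM in WT kidneys. The lowest NICD2 library was well above the highest WT library (log2 fold change 0.75 ± 0.08, limma adjusted p = 5.72e-04). Col11a1, which starts the thin fibrils of cartilage (chr3:114030479-114220756, plus strand), had 3.12, 4.40 and 3.83 FPKM in NICD2 kidneys, against 1.82, 2.29 and 2.45 FPKM in WT kidneys. Its groups did not overlap (log2 fold change 0.58 ± 0.13, adjusted p = 0.0261). The call was lost without NICD2 replicate 2, NICD2 replicate 3, WT replicate 1 or WT replicate 2, with an adjusted p of up to 0.0811.

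Neither Col2a1 nor any marker on the cartilage list was called. Col2a1, the main collagen of cartilage, had 2.64, 2.39 and 2.23 FPKM in NICD2 kidneys and 4.30, 3.14 and 3.31 FPKM in WT kidneys, each NICD2 library below each WT library without passing the threshold (adjusted p = 0.0618). Among 9 cartilage markers with values, 4 were tested and 0 called, Acan did not exceed 0.12 FPKM in any library, and the list summed to 13.9 to 15.0 FPKM in NICD2 and 14.4 to 16.4 FPKM in WT kidneys.

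Col1a1, Col1a2 and Col3a1, the chains of interstitial collagen fibres, made up 89.6% ± 0.52 of fibrillar FPKM in NICD2 and 91.1% ± 0.40 in WT kidneys (SD, n = 3 each). Col1a1 had 175.63, 242.70 and 178.68 FPKM in NICD2 kidneys and 252.71, 229.51 and 189.78 FPKM in WT kidneys. Col1a2 had 224.62, 276.54 and 254.67 FPKM in NICD2 kidneys and 287.25, 293.78 and 250.01 FPKM in WT kidneys. Col3a1 had 271.09, 319.22 and 340.05 FPKM in NICD2 kidneys and 325.31, 368.82 and 308.46 FPKM in WT kidneys. The groups overlapped for each of them, with log2 fold changes of -0.18, -0.14 and -0.11 and adjusted p-values of 0.499, 0.421 and 0.556. The 95% interval for Col1a1 ran from -0.50 to 0.15. Col1a1 over Col1a2, which join in the ratio of the collagen I trimer, was 0.787 ± 0.088 in NICD2 and 0.807 ± 0.064 in WT kidneys (exact permutation p = 0.8).

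The chains of collagen V, which sits inside collagen I fibrils, overlapped between groups. Col5a1 had 25.62, 32.90 and 30.02 FPKM in NICD2 kidneys and 31.28, 34.28 and 28.02 FPKM in WT kidneys. Col5a2 had 23.45, 26.23 and 28.64 FPKM in NICD2 kidneys and 24.53, 26.80 and 26.21 FPKM in WT kidneys (adjusted p = 0.687 and 0.957 for Col5a1 and Col5a2). The rarer Col5a3 averaged 2.18 ± 0.50 FPKM in NICD2 and 3.16 ± 0.50 FPKM in WT kidneys (limma adjusted p = 0.129). With a term for adrenal RNA that was added after seeing the data, its limma adjusted p was 0.0417. Col11a2 and Col24a1 stayed under the minimum for testing, at 0.507 ± 0.055 and 0.840 ± 0.056 FPKM in NICD2 and 0.743 ± 0.110 and 0.997 ± 0.074 FPKM in WT kidneys.

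Stromal markers, from the cells that make these fibres, gave 0 higher and 3 lower of 14 tested (Cygb, Foxd1 and Tcf4), a median of -0.29, and a summed level of 517 to 614 FPKM in NICD2 and 582 to 665 FPKM in WT kidneys. Cygb kept its call in all 6 fits that leave out a library, Tcf4 in 2 and Foxd1 in 1. Enzymes and chaperones of collagen synthesis and crosslinking gave 1 higher (Lox, a crosslinking oxidase, adjusted p = 0.0328) and 0 lower of 29 tested, with a median of 0.05. Lox had 32.28, 33.01 and 36.13 FPKM in NICD2 kidneys and 26.09, 29.00 and 26.40 FPKM in WT kidneys, and the call was lost in 5 of the 6 fits that leave out a library. The part of stromal cell number in the fibrillar values was not tested.

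**Figure D4:**
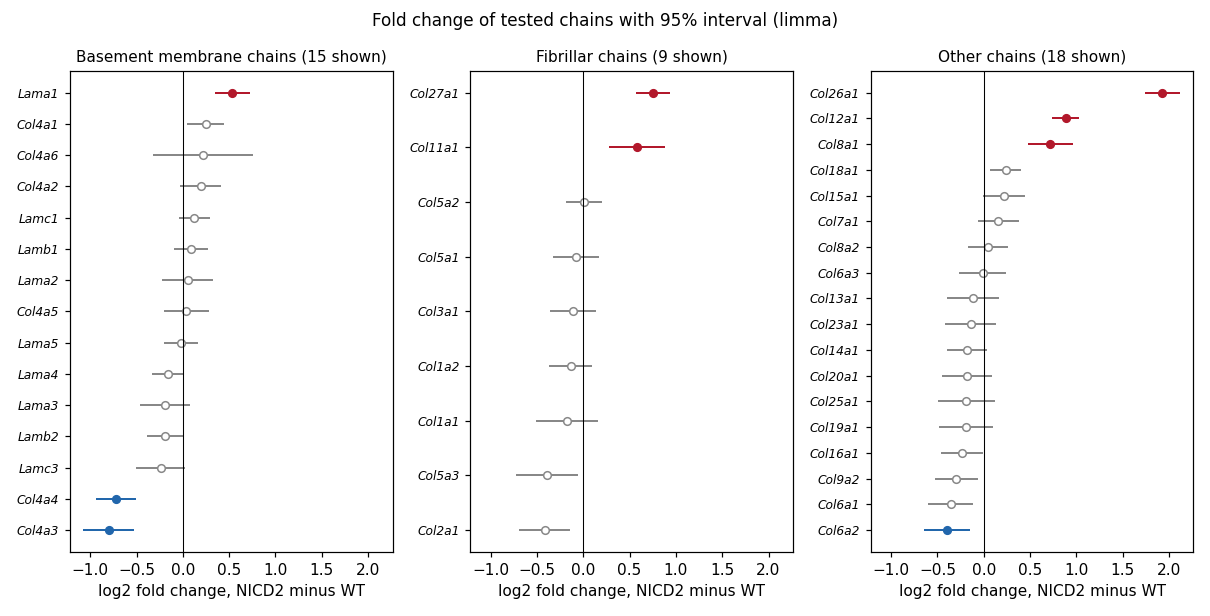
Log2 fold change, NICD2 minus WT, of each of the 42 tested chains with its 95% interval from limma, in panels for basement membrane, fibrillar and other chains. Filled red points are called higher, filled blue points called lower and open points not called. Most open points lie within 0.4 of 0, and Col26a1 stands at 1.93.

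Of the other chains, 3 rose and 1 fell of 18 tested, with a median log2 fold change of -0.13. Among the 3, Col8a1 reached the minimum for testing only in NICD2 libraries. Col26a1, a secreted collagen first described in testis and ovary (chr5:136741759-136883376, minus strand), had 147.18, 124.87 and 126.49 FPKM in NICD2 kidneys, against 35.71, 32.80 and 33.68 FPKM in WT kidneys. The NICD2 mean was 390% of the WT mean, and the groups lay far apart, with a log2 fold change of 1.93 ± 0.08 (SE, 95% interval 1.75 to 2.11, limma adjusted p = 5.72e-06). By mean level it ranked 9 among the chains in NICD2 kidneys and 15 in WT kidneys, with Col19a1 counted. Col12a1, a FACIT collagen on the surface of collagen I fibrils (chr9:79598987-79719599, minus strand), had 48.22, 48.35 and 46.17 FPKM in NICD2 kidneys, against 24.27, 25.29 and 26.43 FPKM in WT kidneys. Its libraries were close within each group and did not overlap between groups (log2 fold change 0.88 ± 0.06, adjusted p = 6.6e-05).

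No other FACIT chain was called. Col14a1, its nearest relative in role, had 29.45, 33.50 and 34.15 FPKM in NICD2 kidneys and 34.30, 41.29 and 35.28 FPKM in WT kidneys, and Col16a1 had 24.01, 29.21 and 24.57 FPKM in NICD2 kidneys and 33.51, 30.65 and 27.71 FPKM in WT kidneys. The groups did not overlap for Col14a1 and did for Col16a1, with log2 fold changes of -0.18 and -0.23 (adjusted p = 0.242 and 0.173). Col9a2, of the cartilage collagen IX, averaged 2.10 ± 0.10 FPKM in NICD2 and 2.81 ± 0.26 FPKM in WT kidneys (adjusted p = 0.0949). Col20a1 averaged 1.08 ± 0.17 FPKM in NICD2 and 1.36 ± 0.13 FPKM in WT kidneys, and Col22a1, Col9a1 and Col9a3 stayed under the minimum for testing.

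Col8a1, a short chain collagen of vessel walls and corneal endothelium (chr16:57624256-57754737, minus strand), had 1.94, 2.08 and 1.83 FPKM in NICD2 kidneys, against 0.74, 0.86 and 0.77 FPKM in WT kidneys. The NICD2 mean was 247% of the WT mean, a change that log2(FPKM + 1) understates near 1 FPKM. Col8a1 entered the test only through its NICD2 values. Its call (log2 fold change of FPKM + 1 0.72 ± 0.10, limma adjusted p = 0.00382) thus describes these libraries and adds no weight to the count of higher chains. Its partner Col8a2 averaged 6.34 ± 0.75 FPKM in NICD2 and 6.09 ± 0.17 FPKM in WT kidneys (adjusted p = 0.797), with groups that overlapped. Markers of smooth muscle and mural cells, another set of vessel wall genes, gave 3 higher (Notch3, Cnn1 and Tagln) and 0 lower of 13 tested, a median of 0.29, and a summed level of 900 to 1128 FPKM in NICD2 and 686 to 777 FPKM in WT kidneys. Endothelial markers gave 0 higher and 4 lower of 15 tested (Emcn, Tek, Egfl7 and Tie1), a median of -0.21, and a summed level of 548 to 586 FPKM in NICD2 and 631 to 725 FPKM in WT kidneys. Of the 6 fits that leave out a library, Notch3 and Emcn kept their call in all 6, Cnn1, Tagln and Tek in 2 each, and Egfl7 and Tie1 in 1 each. The part of either cell type in the chain values was not tested.

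The chains of collagen VI, which forms beaded filaments around cells, differed among themselves. Col6a2 (chr10:76595756-76623625, minus strand) had 57.40, 75.53 and 68.46 FPKM in NICD2 kidneys, against 93.30, 91.44 and 80.86 FPKM in WT kidneys, and Col6a1, its neighbour on the chromosome, had 65.47, 84.43 and 81.51 FPKM in NICD2 kidneys and 102.38, 102.67 and 90.76 FPKM in WT kidneys. Neither pair of groups overlapped, and the log2 fold changes of -0.40 ± 0.10 and -0.36 ± 0.10 fell on either side of the threshold (adjusted p = 0.0496 for Col6a2 and 0.0669 for Col6a1). The Col6a2 call was kept in 1 of the 6 fits that leave out a library, with an adjusted p of up to 0.155. Both chains passed with a term for adrenal RNA that was added after seeing the data (limma adjusted p = 0.0118 for Col6a2 and 0.0152 for Col6a1). The third chain, Col6a3, had 25.43, 33.98 and 28.54 FPKM in NICD2 kidneys and 27.18, 31.61 and 29.54 FPKM in WT kidneys, with groups that overlapped (adjusted p = 0.959). Col6a2 over Col6a3 was 2.29 ± 0.09 in NICD2 and 3.02 ± 0.36 in WT kidneys, and Col6a1 over Col6a2 was 1.15 ± 0.04 in NICD2 and 1.11 ± 0.01 in WT kidneys (SD, n = 3 each). Col6a4, Col6a5, Col6a6 and Col28a1 stayed below 1 FPKM.

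Col15a1 and Col18a1, the multiplexins at the edge of basement membranes, did not pass the test. Col18a1, whose tail releases endostatin, had 197.80, 195.15 and 185.98 FPKM in NICD2 kidneys and 157.89, 175.36 and 158.65 FPKM in WT kidneys, with every NICD2 library above every WT library (log2 fold change 0.23, 95% interval 0.08 to 0.39, adjusted p = 0.0656). Col15a1 had 95.46, 123.61 and 108.70 FPKM in NICD2 kidneys and 90.01, 99.91 and 89.96 FPKM in WT kidneys, with overlapping groups (adjusted p = 0.201). Col7a1, of anchoring fibrils, averaged 3.38 ± 0.07 FPKM in NICD2 and 2.94 ± 0.33 FPKM in WT kidneys (adjusted p = 0.338). The transmembrane chains Col13a1, Col23a1 and Col25a1 overlapped between groups, with log2 fold changes between -0.19 and -0.12. Col10a1 and Col17a1 were below 0.5 FPKM in every library.

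Col19a1, a FACIT chain, was listed at 10439, 8885 and 10479 FPKM in NICD2 kidneys and 11616, 10938 and 11412 FPKM in WT kidneys, which is 26.9 times the next chain, Col4a1, in WT kidneys. All NICD2 libraries were lower, without passing the test (log2 fold change -0.19, adjusted p = 0.379). Its deposited gene model on chr1:24257683-24614802 (minus strand) runs 26880 bases past the RefSeq boundary at 24587922, which on this strand is upstream of the RefSeq start. That stretch holds 6 annotated pseudogenes. For 5 of them, the best matches on the mitochondrial chromosome (mt-Nd4, mt-Nd4l, mt-Nd3, mt-Co3 and mt-Atp6) are 99.7% to 100% identical. The NICD2 mean was 0.877 of the WT mean for Col19a1, 0.868 for an unnamed row that overlaps it and 0.842 for the summed rows of the mitochondrial chromosome. How many of the fragments come from such copies was not tested. Class sums leave Col19a1 out, while counts, ranks and medians include it. Without it the median log2 fold change was -0.08 over the tested chains and -0.12 over the tested other chains.

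**Figure D5:**
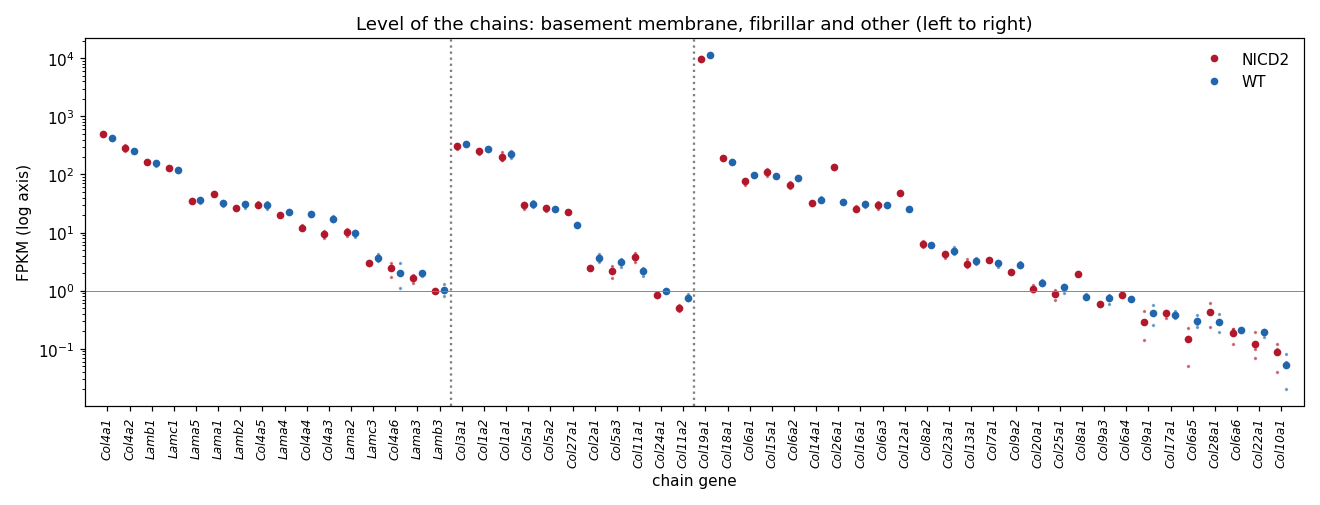
Mean level in FPKM (log axis) of the 54 chains in NICD2 (red) and WT (blue) kidneys, with small points for the 3 libraries of each group, ordered by level within basement membrane, fibrillar and other chains, which dotted lines separate. A grey line marks 1 FPKM, and Col19a1 stands apart at 9934 FPKM in NICD2 and 11322 FPKM in WT kidneys.

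Over the remaining 53 chains, basement membrane chains made up 44.6% ± 0.30 of summed FPKM in NICD2 and 42.8% ± 1.79 in WT kidneys, and fibrillar chains made up 29.5% ± 1.05 in NICD2 and 33.9% ± 1.70 in WT kidneys (SD, n = 3 each). The summed FPKM of the other chains was 741 ± 30.9 in NICD2 and 627 ± 30.0 in WT kidneys, and Col26a1 alone averaged 133 ± 12.4 FPKM of this in NICD2 and 34.1 ± 1.49 FPKM in WT kidneys. In the authors' deposited table, which compares the groups with DEGseq, 40 of the 54 chains have a q-value under 0.05, beside 48.9% of 18725 rows.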

How the data were processed

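RNA was extracted from whole kidneys frozen at postnatal day 3 and made into libraries with an Illumina TruSeq kit, per the labels' protocols. The authors deposited 1 table with FPKM per library to 2 decimals, per the file headers. It also holds the authors' log2 fold change and q-value (a p-value adjusted by the authors) from DEGseq and each gene's longest transcript length, which is another of the authors' values. Bowtie 0.12.2 and mm8 are named in the submitters' processing notes, but the table's positions match GRCm38 and are printed on that build. The sources used here do not state the program behind the FPKM, its use of strand or its treatment of reads shared between gene copies. Of 23669 rows 4010 held no FPKM and 27 columns comparing pairs of samples were not used. Depth was not stated. It was estimated as the library size at which the largest share of low values, 72.8% to 75.8%, came within 0.15 of a whole fragment. At a size fixed beforehand 30.0% would by chance, and choosing the size by this share raises that figure. The share was too low to recover counts.

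FPKM were transformed to log2(FPKM + 1), which understates the change of genes near 1 FPKM. The 13765 genes that reached 1 FPKM in 3 or more libraries were compared with limma 3.58.1 (R 4.3.3, mean-variance trend, two-sided, no covariate, all 6 libraries), with Benjamini-Hochberg adjustment over all of them and a threshold of 0.05. The script was tested on simulated data. Differences of the log2 ratio of FPKM + 1 between 8 pairs of chains were tested by exact permutation over libraries. This used scipy 1.17.1 (Python 3.11.15, pandas 2.3.3, matplotlib 3.10.9). Errors are SDs over 3 libraries unless named SE. The labels do not say that libraries of a group came from separate animals, so p-values measure the spread between these libraries, which may be technical in part. Within groups the libraries correlated at 0.992 to 0.994 and between groups at 0.984 to 0.989 over all rows with FPKM.

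Members and lists were chosen with earlier results of these data known. A chain and some markers are not reported here, and the counts, sums and shares of chains leave that chain out. Any other member could be named. Those called, above 20 FPKM or in a ratio are given for each library, and of other lists at most 5 genes with the smallest p. Cdh16 and Y-linked genes serve as checks of the libraries. Promoter windows came from RefSeq (GRCm38.p6), where 40 of the 54 chains reported matched. Alternatives were a pseudocount of 0.1, no minimum or 2 FPKM, median-ratio and upper-quartile scaling, the replicate number as a block, each library left out, and Col15a1, Col18a1 and Col7a1 counted as basement membrane chains. A term for adrenal RNA was added after seeing the data. Apart from the block, samples were not treated as paired by replicate number.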

Additional observations from a re-analysis of the deposited data

How the results depend on the processing

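Of 116 alternative values for the 9 called chains, 103 kept direction and call, 13 lost the call and 0 turned round. Col26a1, Col12a1, Col27a1, Lama1, Col4a3 and Col4a4 kept the call in every setting. Col8a1 kept it in each setting that tested it, and was not tested at a minimum of 2 FPKM. It passed the minimum of 1 FPKM only through its NICD2 libraries, so its values among the 116 add no weight. Scaling moved the median of all genes by less than 0.1 on the log2 scale. Fibrillar chains called higher numbered 2, and 1 with no minimum (Col11a1 lost, adjusted p = 0.0640). Fibrillar chains called lower numbered 0, and 1 with the adrenal term (Col5a3). Other chains called lower numbered 1 (Col6a2), against 0 with no minimum, 0 with a pseudocount of 0.1 and 2 with the adrenal term, which added Col6a1. Leaving out each library in turn gave 388 to 589 genes higher (679 with all) and 236 to 411 lower (531 with all), 1 to 2 fibrillar chains higher and 0 to 1 other chains lower. It also moved the log2 ratio of Col4a4 to Col4a3 between -0.011 (without NICD2 replicate 2) and 0.142, and that of Col1a1 to Col1a2 between -0.119 and 0.041 (without NICD2 replicate 3; 0.025 without WT replicate 1). The log2 ratio of Col4a6 to Col4a5 differed by 0.182, and by 0.0323 (without WT replicate 1) to 0.341 (without NICD2 replicate 1), with 0.0685 without NICD2 replicate 2 and 0.321 without WT replicate 2. That of Lamb2 to Lamb1 ran from -0.398 (without WT replicate 3) to -0.179 (without WT replicate 1), and that of Col4a2 to Col4a1 from -0.0840 (without NICD2 replicate 2) to -0.0310 (without NICD2 replicate 1). With fewer libraries fewer genes pass in general, and the cause of each lost call was not tested.

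The deviations of same-numbered libraries from their group means correlated at -0.03, 0.06 and -0.05. These values showed no pairing by number but cannot exclude one, and the labels do not say. With the replicate number as a block 616 genes were higher and 439 lower, and the other chains called lower numbered 0 (Col6a2, adjusted p = 0.0657), with no other change among the counts of chains. Depth limits the chains near 1 FPKM most: Col8a1 rests on an estimated 157 to 175 fragments in NICD2 and 61 to 73 in WT libraries.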
